A study of Mus musculus with 12 samples.

Results

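Livers of adult mice without Abcb11 were compared with WT livers across 17097 genes, on 6 of the 12 arrays of the study. The members were the 3 arrays labelled Abcb11-/- and the 3 labelled WT at 1.5 months, all from female mice of the C57BL/6 background, with no treatment named. The other 6 arrays held lungs of offspring. The Abcb11-/- mice lack the gene in every tissue, so liver cells and all other cells of these animals carry the deletion, and neither the C57BL/6 substrain nor the litters are given in the labels. The labels name a mouse and a replicate number for each array. p-values therefore measure the spread between these 6 samples.

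Abcb11 encodes the bile salt export pump, which moves conjugated bile acids from the hepatocyte across its canalicular membrane into bile. When this step fails, bile acids are retained in the hepatocyte, a state called intrahepatic cholestasis. Hepatocytes can then reduce uptake and synthesis of bile acids, hydroxylate and conjugate them, and export them back to blood through basolateral carriers or into bile through other canalicular pumps.

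The targeted gene was reported first. Abcb11 had deposited log2 signals of 11.22, 11.04 and 10.88 in WT livers and 2.90, 3.14 and 3.26 in Abcb11-/- livers. The position of its probe set relative to the deleted part of the gene was not checked. A gene was called when its adjusted p was under 0.05 in limma, a linear model with a pooled estimate of spread, adjusted by Benjamini-Hochberg over all 17097 genes. By this rule 4.33% of all genes were higher and 2.91% lower in Abcb11-/- livers, and these shares are the background for every count below. The rise was called and at least 2-fold in 1.70% of genes, and the fall in 0.684%. The median log2 fold change over all genes was 0.00. Each call was repeated in 12 alternative fits, 6 that left out 1 array and 6 that changed another setting, and a call is described as held where it stayed below 0.05 with the same sign in each of the 12 that tested the gene; the fit limited to genes with a mean signal of at least 6 left dimmer genes out. Of the genes called higher, 255 were held, and of those called lower, 132.

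**Figure D1:**
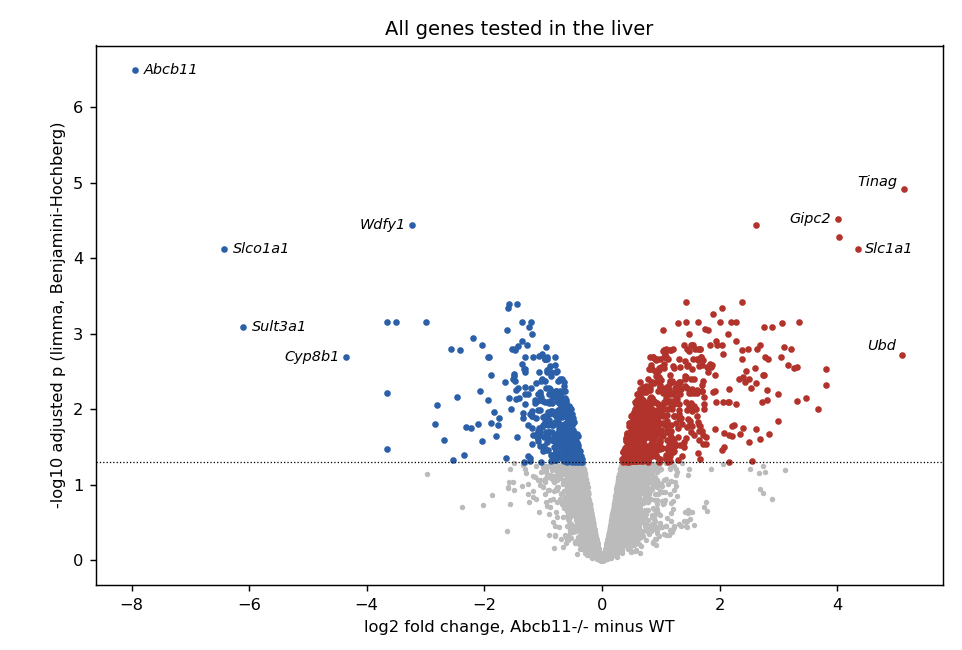
Each point is 1 of 17097 genes, with the log2 fold change (Abcb11-/- minus WT, n = 3 each) on the x axis and -log10 of the limma adjusted p on the y axis. Red and blue points lie above the dotted line at an adjusted p of 0.05, and Abcb11 lies furthest to the left with a log2 fold change of -7.95.

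The share of higher calls depended on the scale. On the deposited scale 59.8% of called genes were higher. The median signal over genes was 4.29 to 4.32 in WT and 4.45 to 4.48 in Abcb11-/- arrays. Over all probe sets the array medians were 3.17 to 3.18 in WT and 3.15 to 3.17 in Abcb11-/- arrays. The gap between the genotypes thus appeared among the 17097 genes. For these, probe sets that name no gene or several were dropped and 1 probe set per gene was kept. Which of these steps brought the gap was not tested. Setting the medians over genes equal shifted the median log2 fold change of all genes from 0.00 to -0.16. The calls then became 548 higher and 1659 lower, so 24.8% were higher. With quantile normalization they were 633 higher and 665 lower, or 48.8% higher. The changes below are relative to the deposited scale, and no gene named here that was called reversed its sign on either of the other scales.

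Some Abcb11-/- arrays stood apart from the others of their genotype in particular gene groups. In Abcb11-/- replicate 1, 43 cell cycle genes had a median of 1.73 above their WT means, against 0.05 and 0.14 in the other Abcb11-/- replicates. Mki67, a marker of dividing cells, was at 6.77 in that array and at 3.94 to 4.84 in the other 5. In Abcb11-/- replicate 3, 18 circadian clock genes had a median of -1.32, against -0.31 and -0.33. Dbp, an output factor of the clock, was at 4.94 there, at 8.98 and 8.61 in the other Abcb11-/- arrays and at 9.61 to 10.13 in WT. The clock gene Arntl, which cycles in opposite phase, was at 7.23, against 4.25 and 5.53 and against 2.95 to 3.46 in WT. Abcb11-/- replicate 2 had macrophage markers 0.975 above their WT means, while replicates 1 and 3 were at -0.248 and 0.397. In bulk tissue, more (or fewer) cells of a type and more (or less) RNA per cell cannot be told apart. No sampling time is given in the labels, and what part these differences had in other results was not tested.

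**Figure D2:**
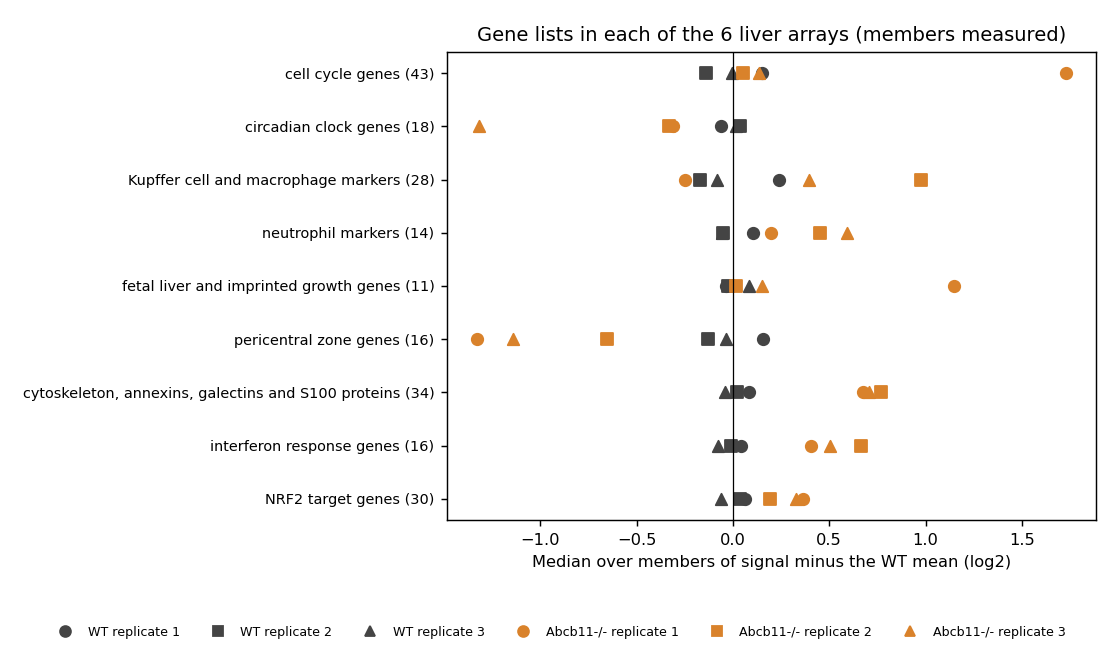
Each row is a gene list, with the number of members measured in brackets, and each point is 1 array, placed at the median over members of signal minus the WT mean (log2). Cell cycle genes set Abcb11-/- replicate 1 apart and clock genes set Abcb11-/- replicate 3 apart, whereas the cytoskeletal list lies well above WT in all 3 Abcb11-/- arrays.

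Among cell cycle genes, 0 of 43 were called higher (4.33% of all genes) and 1 was called lower, and the median log2 fold change of 0.66 fell to 0.10 without Abcb11-/- replicate 1. The gene called lower was Tk1, a thymidine kinase, and its call was lost without any of the WT arrays or without Abcb11-/- replicate 2 or 3 (highest adjusted p = 0.092 from limma). Of the clock genes, 1 of 18 was called. Hlf, a clock-controlled transcription factor, was at 8.36, 8.35 and 8.40 in WT and 7.30, 7.61 and 7.04 in Abcb11-/- livers, and this fall was held.

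The largest rises were in genes that were dim in WT livers. Tinag, a basement membrane glycoprotein, had signals of 2.45, 2.65 and 2.58 in WT and 7.75, 7.39 and 7.96 in Abcb11-/- livers, 35.3-fold apart (difference 5.14 ± 0.15 SE on the log2 scale, limma adjusted p = 1.22e-05). Ubd, a ubiquitin-like modifier induced by inflammatory cytokines, was at 2.82, 2.90 and 3.70 in WT and 9.08, 7.08 and 8.54 in Abcb11-/- livers, 34.1-fold apart (adjusted p = 0.0019 from limma). Slc1a1, a carrier of glutamate and cysteine, was at 2.62, 2.69 and 2.70 in WT and 6.56, 7.12 and 7.37 in Abcb11-/- livers. None of these 3 genes overlapped between the genotypes, which the choice of the largest rises required, and all 3 calls were held. Over all genes, every Abcb11-/- array lay above every WT array in 13.8%. The deposited values carry no detection call, and since Abcb11 itself lay near 3 in its knockout, folds of genes that dim in WT depend on that floor.

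The other 12 of the 15 largest rises had log2 fold changes between 3.16 and 4.02. They included Slc51b, a subunit of the basolateral bile acid exporter, Gipc2, a scaffold protein, Tmprss4, a membrane serine protease, and Smoc2, a matrix protein that binds calcium. They also included Elovl7, an elongase of long-chain fatty acids, Anxa13, an annexin of epithelial cells, Gpx2, a glutathione peroxidase best known in gut epithelium, and Mfge8, a secreted bridge between dying cells and phagocytes. Nell1, Wfdc3, Bex4 and Cyp4a12a completed the group. All but Nell1 were held, and Nell1 lost its call without WT replicate 3 (adjusted p = 0.052 from limma). Elovl7 was measured by 5 probe sets, of which 2 were called higher and none lower.

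**Figure D3:**
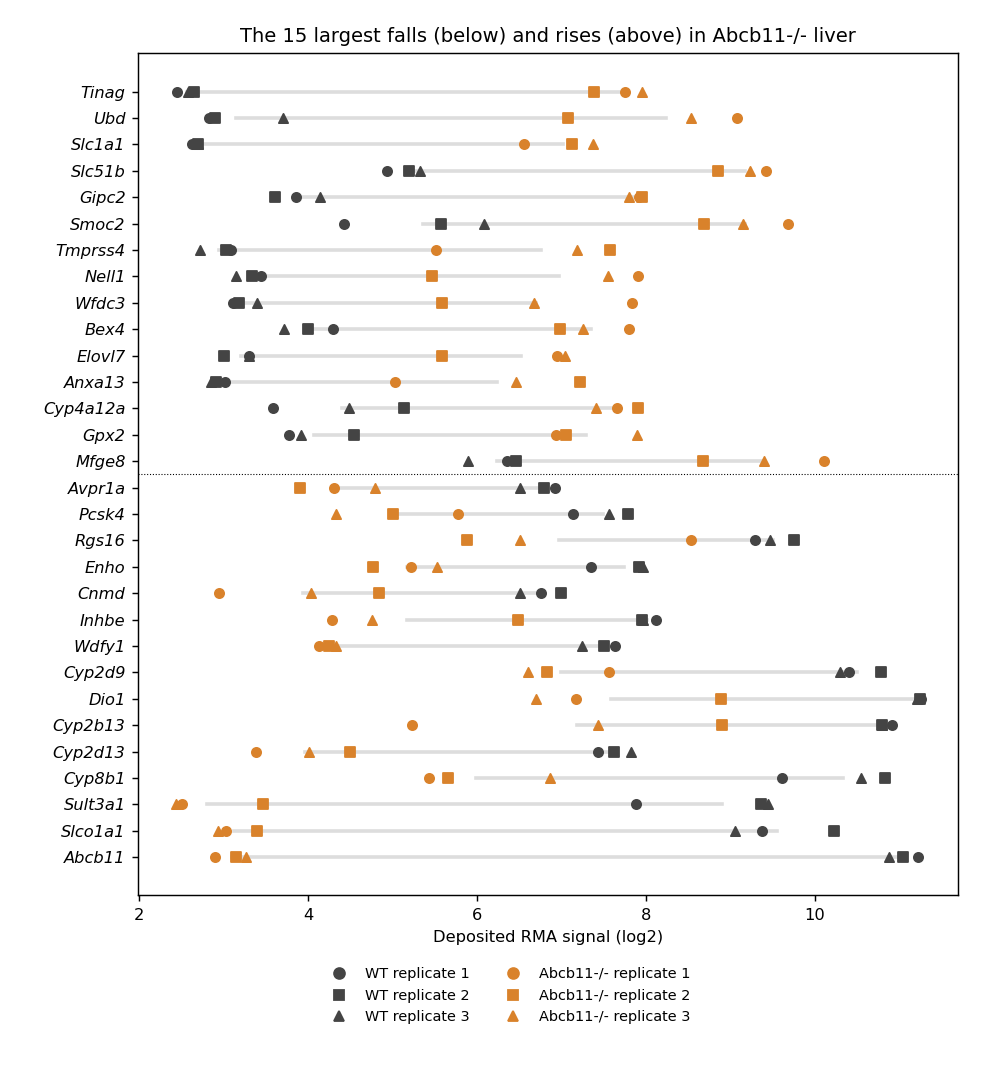
Deposited RMA signal (log2, x axis) of the 15 genes that rose most and the 15 that fell most, among called genes with a brighter group mean of at least 6. Each symbol is 1 array and the grey bar joins the 2 group means, and WT and Abcb11-/- arrays do not overlap for any of these genes, which the choice required.

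The falls were led, after Abcb11, by 2 genes that reached the floor. Slco1a1, a basolateral carrier that takes up organic anions, was at 9.38, 10.23 and 9.05 in WT and at 3.03, 3.40 and 2.93 in Abcb11-/- livers, a log2 fold change of -6.43 (limma adjusted p = 7.42e-05). Its other probe set gave -4.56, and since the Abcb11-/- signals lay at the floor neither value is an exact fold. Sult3a1, an amine sulfotransferase, was at 7.88, 9.36 and 9.45 in WT and 2.51, 3.46 and 2.43 in Abcb11-/- livers. Dio1, which activates thyroid hormone, was at 11.26, 11.25 and 11.21 in WT and 7.17, 8.89 and 6.70 in Abcb11-/- livers, and so varied more among Abcb11-/- than among WT mice. Each of these falls was held.

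Several secreted factors and signalling genes were also among the 15 largest falls. Inhbe, an inhibin subunit released by hepatocytes, Enho, the precursor of adropin, Cnmd, a cartilage-type glycoprotein, Pcsk4, a proprotein convertase, and Avpr1a, the hepatic vasopressin receptor, had log2 fold changes between -2.41 and -2.84. The fall was held for Enho, Cnmd, Pcsk4 and Avpr1a. Inhbe lost its call without any of the WT arrays or without Abcb11-/- replicate 3 (highest adjusted p = 0.068 from limma). Rgs16, a regulator of G-protein signalling, was at 8.54 in Abcb11-/- replicate 1 and at 5.88 and 6.51 in the other Abcb11-/- replicates, and lost its call without any array but Abcb11-/- replicate 1 (highest adjusted p = 0.165).

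**Figure D4:**
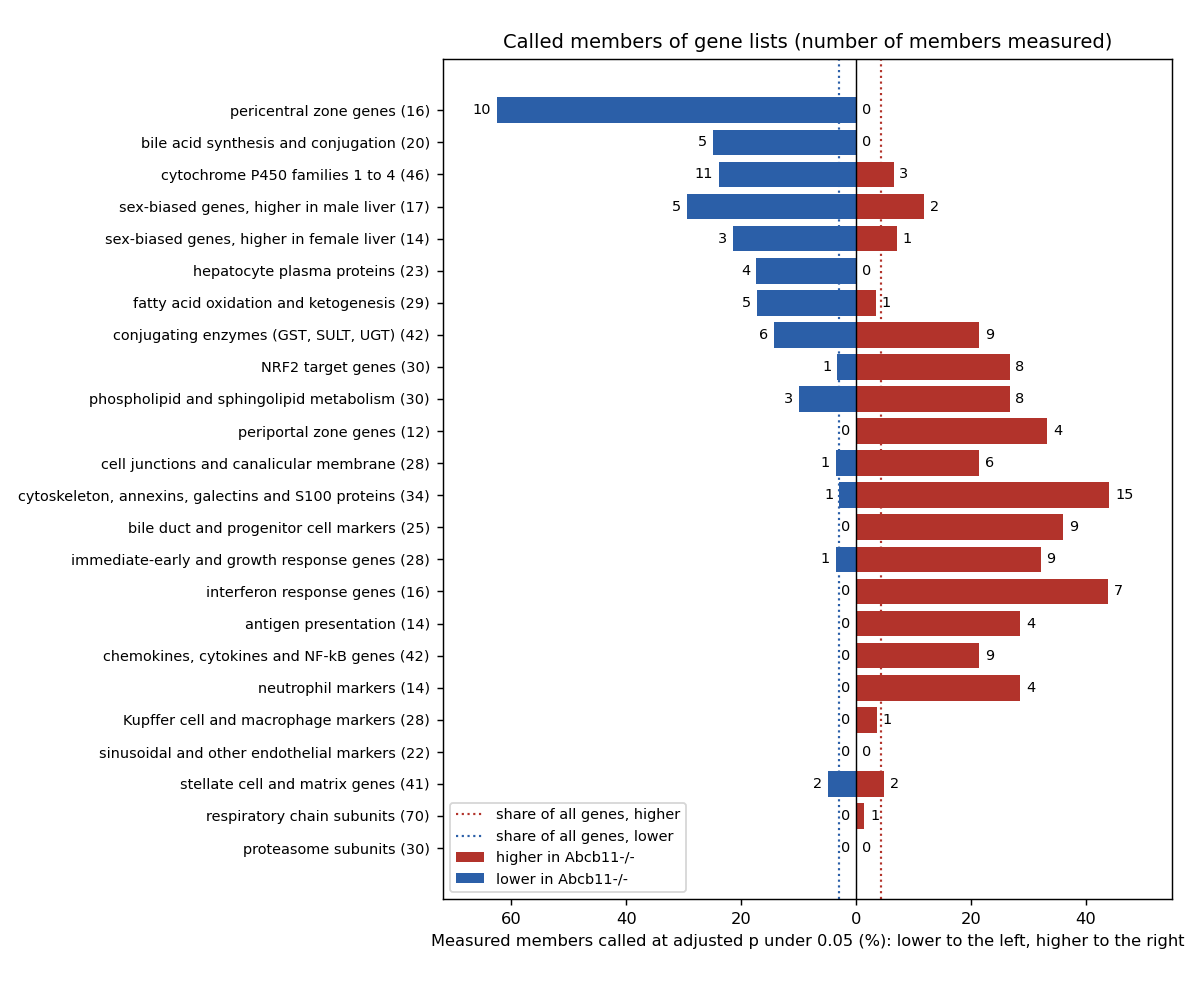
Bars give the share of measured members called higher (right, red) or lower (left, blue) in Abcb11-/- liver for 24 gene lists, with the number called at the end of each bar and the number measured in brackets. The dotted lines are the shares over all genes, 4.33% higher and 2.91% lower; pericentral genes reach 62.5% on the left and the cytoskeletal list 44.1% on the right.

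Of 11 canalicular exporters and flippases, 3 were higher and 3 lower. Without WT replicate 3, 1 was higher, and without WT replicate 1 or 2, 1 was lower, which was Abcb11. Abcb1a, the multidrug exporter P-glycoprotein, was at 6.79, 6.57 and 6.59 in WT and 9.83, 8.84 and 9.34 in Abcb11-/- livers (difference 2.69 ± 0.23 SE on the log2 scale, limma adjusted p = 0.0014), held and with both probe sets called. Abcb4, the phosphatidylcholine flippase, rose by 0.78 on the log2 scale, and Atp8b1, a flippase that protects the canalicular membrane, by 0.63. Besides Abcb11, the falls were in Abcg8, a subunit of the sterol exporter (-0.93), and Abcc2, the exporter of conjugated organic anions (-0.72). Abcg5, the partner subunit of Abcg8, had a log2 fold change of -0.23 that was not called. Abcb4 lost its call without WT replicate 2 or 3 (adjusted p up to 0.054 from limma) and Abcg8 without WT replicate 1 or 2 (up to 0.055). Atp8b1 lost its call without WT replicate 1 or 3 or Abcb11-/- replicate 3 (up to 0.082), and Abcc2 without any WT array or Abcb11-/- replicate 3 (up to 0.143).

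On the basolateral face, 2 of 7 exporters were higher and 1 was lower, with a median log2 fold change of 0.08 that turned to -0.08 after median centring. Slc51b was at 4.93, 5.19 and 5.32 in WT and 9.42, 8.86 and 9.23 in Abcb11-/- livers, and Abcc4, an exporter of bile acids and cyclic nucleotides, was at 5.87, 5.28 and 5.73 in WT and 7.35, 6.62 and 7.24 in Abcb11-/- livers. Both rises were held. The probe set of Slc51a, the other subunit of the Slc51b exporter, stayed near 3 in both genotypes, and Abcc3, another basolateral exporter, had a log2 fold change of -0.04. Abcc6, a further transporter of this list, was at 9.60, 9.56 and 9.54 in WT and 9.09, 8.98 and 8.83 in Abcb11-/- livers, a fall that lost its call without WT replicate 1 or 2. Of 8 uptake carriers, 3 were lower (2.91% of all genes) and 1 was higher, and the count of lower carriers was 2 to 5 when single arrays were left out, highest without Abcb11-/- replicate 2. Slco1b2, which takes up bile acids independently of sodium, fell by 0.84 (standard error 0.11), a held call, and Slco1a4 fell by 0.44, a call lost in 6 of 12 fits. Slc10a1, the sodium-dependent bile acid carrier of hepatocytes, had signals of 12.72, 12.78 and 12.78 in WT and 12.30, 12.49 and 12.12 in Abcb11-/- livers, with an adjusted p of 0.0502 from limma that misses the threshold. Slc10a2, the related carrier best known in ileum and bile duct, was at 3.72, 4.78 and 5.55 in WT and 6.30, 7.62 and 7.64 in Abcb11-/- livers, and its call was lost without WT replicate 1 or 2 or Abcb11-/- replicate 2 or 3 (highest adjusted p = 0.0985).

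Of the enzymes of bile acid synthesis and conjugation, none of 20 measured was called higher and 5 were called lower (25%), with a median log2 fold change of -0.22. Cyp8b1, the hydroxylase that directs synthesis towards cholic acid, was at 9.61, 10.83 and 10.55 in WT and 5.43, 5.66 and 6.86 in Abcb11-/- livers, 20.3-fold lower. Cyp7b1, the hydroxylase of the alternative pathway, was at 9.31, 9.38 and 9.41 in WT and 7.91, 8.14 and 7.63 in Abcb11-/- livers. These falls were held. Cyp39a1, which hydroxylates oxysterols, fell by 1.09, Akr1c6, a hydroxysteroid dehydrogenase, by 0.46 and Acot8, a peroxisomal thioesterase, by 0.46, each with the call lost without any WT array. Cyp7a1, the rate-limiting enzyme of the classical pathway, was at 8.90, 9.71 and 9.48 in WT and 9.05, 9.92 and 8.52 in Abcb11-/- livers (log2 fold change -0.20, standard error 0.35), so its groups overlapped. The conjugating enzymes Baat and Slc27a5 had log2 fold changes of 0.37 and -0.09 and were not called. The count of 5 became 2 without any single WT array or without Abcb11-/- replicate 3, 3 without Abcb11-/- replicate 1 or with the replicate block, 8 without Abcb11-/- replicate 2 and 10 after median centring.

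Of 46 drug-metabolizing cytochromes of families 1 to 4, 11 were lower (23.9%) and 3 were higher (6.52%). Cyp2d9 was at 10.41, 10.79 and 10.30 in WT and 7.56, 6.83 and 6.61 in Abcb11-/- livers, and Cyp2c37 at 12.27, 12.21 and 12.17 in WT and 11.02, 11.32 and 11.10 in Abcb11-/- livers, both held. Cyp2b13 was at 5.23, 8.90 and 7.43 in Abcb11-/- livers against 10.80 to 10.92 in WT, and its call was lost without any WT array or without Abcb11-/- replicate 3 (highest adjusted p = 0.13 from limma). The rises were in Cyp4a12a (log2 fold change 3.26), Cyp2c55 (2.62) and Cyp2j6 (0.65), all held. Cyp2c55, a fatty acid hydroxylase, was bright in both genotypes, at 8.97, 8.31 and 8.04 in WT and 11.69, 10.58 and 10.90 in Abcb11-/- livers. Cyp3a11, the main drug-oxidizing cytochrome of mouse liver, lay near the top of the scale and had a log2 fold change of 0.22 that was not called. Members of these families have near-identical copies, so a probe set may have read more than the gene it is named for. The count of lower members was 5 to 7 without any single WT array or Abcb11-/- replicate 3 and 17 after median centring, and that of higher members was 3 in each.

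Of 42 glutathione transferases, sulfotransferases, glucuronosyltransferases and their cofactor enzymes, 9 were higher and 6 were lower, at a median of 0.03 that turned to -0.13 after median centring, when 7 were higher and 9 lower. Without WT replicate 3 the higher count was 5, without WT replicate 2 or Abcb11-/- replicate 3 it was 6, and without WT replicate 2 the lower count was 3. Gsta2 was at 10.20, 10.05 and 9.79 in WT and 11.99, 11.84 and 11.89 in Abcb11-/- livers (difference 1.89 ± 0.12 SE on the log2 scale, limma adjusted p = 0.00055). Gsta4, which detoxifies lipid peroxidation products, rose by 1.41, the membrane-bound Mgst3 by 1.05, Ugdh, which makes the cofactor for glucuronidation, by 1.05, and Papss1, which makes the cofactor for sulfation, by 1.55. All of these were held. Sulfotransferases went both ways. Those that fell were Sult5a1 at -1.94, Sult2a8 at -1.32, Sult3a1 and Sult1c2, and among glucuronosyltransferases Ugt2b1 fell from 12.03, 11.99 and 11.99 to 10.56, 10.83 and 10.11. Sult2a8, reported to act on bile acids in mouse liver, was at 10.08, 11.51 and 10.54 in Abcb11-/- livers and lost its call in 8 of 12 fits (highest adjusted p = 0.17). Sult2a2 rose by 0.65, a call lost in 6 fits, and shares sequence with other Sult2a genes. Sult1e1, the estrogen sulfotransferase, rose by 1.15 from a dim signal and lost its call without any WT array or without Abcb11-/- replicate 3.

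Genes of the oxidative stress factor NRF2 overlapped with these. Of 30 measured targets, 8 were higher (26.7%) and 1 was lower, with a median log2 fold change of 0.31, or 0.15 after median centring. Nqo1, a quinone reductase, was at 7.08, 7.09 and 7.17 in WT and 8.12, 7.82 and 7.87 in Abcb11-/- livers, and Srxn1, which repairs oxidized peroxiredoxins, at 6.99, 7.10 and 7.01 and at 7.90, 7.69 and 7.86. Gpx2, Gsta2, Abcc4 and Ugdh also rose, and 6 of the 8 calls were held. Other classical targets were not called, with log2 fold changes of 0.31 for Gclm, 0.49 for Hmox1 and -0.53 for Gclc, the catalytic subunit of glutathione synthesis. Outside this list Gpx4, which reduces lipid peroxides in membranes, rose by 0.85, a call lost without WT replicate 1 or 2 (adjusted p up to 0.055 from limma).

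Pericentral genes formed the list with the largest share of falls among the 53 examined. These genes are expressed in the hepatocytes that surround the central vein, where Wnt signals from the vein maintain them. Of 16 measured, 10 were lower (62.5%, against 2.91% of all genes), 0 were higher, and in 13 every Abcb11-/- array lay below every WT array (12.1% of all genes). The median log2 fold change was -1.05. Cyp1a2, a cytochrome of this zone, was at 12.59, 12.63 and 12.61 in WT and 10.67, 11.47 and 10.74 in Abcb11-/- livers (difference -1.65 ± 0.20 SE on the log2 scale, limma adjusted p = 0.0043). Notum, an enzyme that inactivates Wnt proteins, was at 7.54, 7.58 and 7.48 in WT and 6.41, 6.29 and 6.28 in Abcb11-/- livers.

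Members of the Wnt pathway itself were among these falls. Lgr5, the receptor for R-spondins, was at 6.78, 5.83 and 6.48 in WT and 4.74, 4.55 and 3.98 in Abcb11-/- livers. Rnf43, a ligase that removes Wnt receptors, fell by 1.31, and Tbx3, a transcription factor of the zone, by 1.42, and these calls, with those of Lgr5, Notum and Cyp1a2, were held. Lect2, Cyp2e1 and the glutamate carrier Slc1a2 were also lower but lost the call without any WT array or without Abcb11-/- replicate 3 (adjusted p up to 0.092, 0.107 and 0.131 from limma). Gulo and Znrf3 were lower with calls that were not held. Axin2 and Sp5, 2 more targets of Wnt, had log2 fold changes of -0.67 and -1.04 and were dim and not called. Among venous endothelial ligands, Wnt2 had a log2 fold change of -1.17 and Rspo3 of -0.37, and neither was called. The count of 10 became 5 without WT replicate 1 or 3 or Abcb11-/- replicate 3, 6 without WT replicate 2 and 12 without Abcb11-/- replicate 2, and was 13 after median centring.

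**Figure D5:**
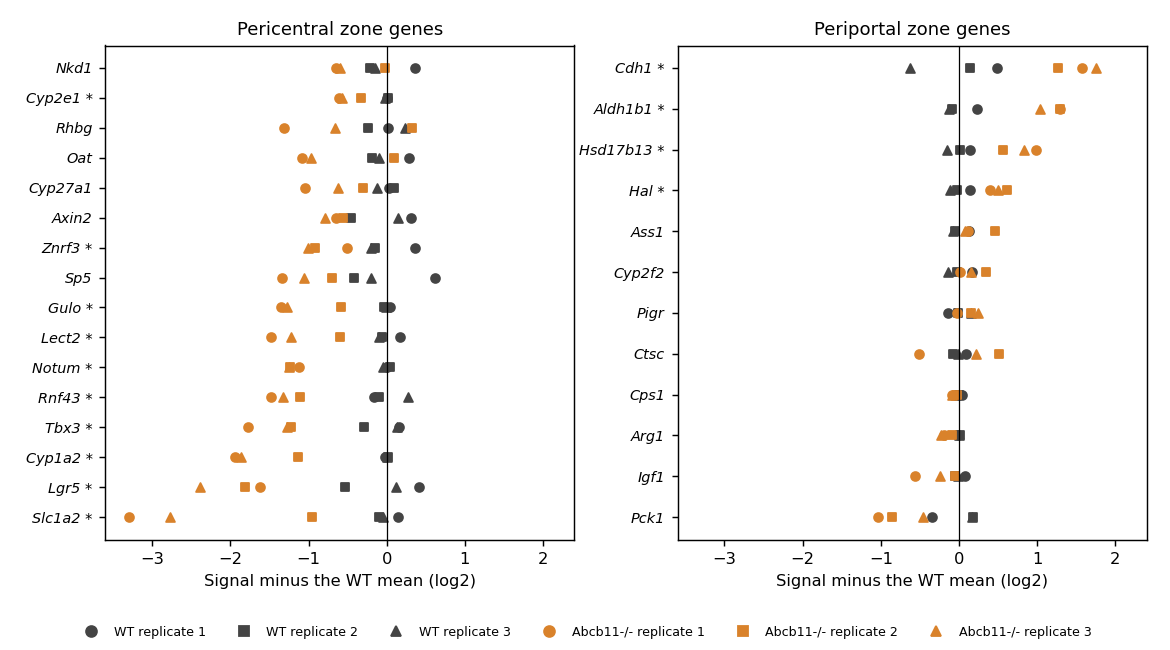
Signal minus the WT mean (log2, x axis) of each pericentral gene (left) and each periportal gene (right), 1 symbol per array, with asterisks at genes called at an adjusted p under 0.05. On the left the Abcb11-/- symbols lie mostly below 0, and those of replicate 2 lie nearest to it for Slc1a2, Cyp1a2, Lect2 and Gulo.

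Of 12 periportal genes, 4 were higher (33.3%) and 0 lower, with a median of 0.15, or -0.01 after median centring, when 3 were higher and 2 lower. Cdh1, the adhesion protein E-cadherin, was at 8.85, 8.50 and 7.74 in WT and 9.94, 9.63 and 10.12 in Abcb11-/- livers, and Aldh1b1, a mitochondrial aldehyde dehydrogenase, at 8.83, 8.51 and 8.47 and at 9.89, 9.89 and 9.64. The call of Aldh1b1 was held, and that of Cdh1 was lost without WT replicate 2 or Abcb11-/- replicate 3 (adjusted p up to 0.063 from limma). Hal and Hsd17b13 rose by 0.51 and 0.79 with calls that were not held. The urea cycle enzymes Cps1, Arg1 and Ass1 had log2 fold changes between -0.17 and 0.22.

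Of 34 genes of the cytoskeleton, annexins, galectins and S100 proteins, 15 were higher (44.1%) and 1 was lower, with a median log2 fold change of 0.70. Tubb2a, a beta-tubulin, was at 8.85, 8.81 and 7.90 in WT and 10.55, 11.12 and 11.38 in Abcb11-/- livers. Anxa5, which binds phosphatidylserine, was at 10.16, 10.08 and 9.91 in WT and 11.62, 10.98 and 11.37 in Abcb11-/- livers. Cytoplasmic actin Actg1 rose by 1.01, Anxa2 by 1.12, Lgals1 by 1.06 and the actin-sequestering peptide Tmsb10 by 0.81. These 6 calls were held, and the list count was 7 without any single WT array and 11 to 19 without an Abcb11-/- array. Lgals4, a galectin of gut epithelium, was the member that fell (-0.70).

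Of 10 keratins and other intermediate filament genes, 4 were higher (40%) and 0 lower, and the count was 1 without any single WT array and 2 without Abcb11-/- replicate 3 or with a replicate block. Krt18, a keratin of hepatocytes and bile ducts, was at 10.61, 10.99 and 10.82 in WT and 11.92, 11.53 and 11.81 in Abcb11-/- livers, a held call. Its partner Krt8 rose by 0.83, a call lost without any WT array or without Abcb11-/- replicate 3 (highest adjusted p = 0.079 from limma). Of 28 junction and canalicular membrane genes, 6 were higher (21.4%) and 1 lower. The count of 6 was 2 with a replicate block, 4 without WT replicate 1, 3 without WT replicate 2 or Abcb11-/- replicate 3 and 11 without Abcb11-/- replicate 2. Tjp3, a scaffold of tight junctions, rose by 1.00 and Myo5b, the motor that carries pumps to the canalicular membrane, by 0.75, both held. Ocln rose by 0.93 and lost the call without WT replicate 1 or with a replicate block (limma adjusted p up to 0.052). The gap junction genes Gjb1 and Gjb2 of hepatocytes had log2 fold changes of -0.27 and -0.06, not called.

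Of 25 bile duct and progenitor markers, 9 were higher (36%) and 0 lower, 3 of them held, and 16 of the 25 had both group means under 5. The count of 9 was 3 to 5 without any single WT array or without Abcb11-/- replicate 3. Sox4, a transcription factor of developing ducts, was at 5.41, 5.73 and 5.80 in WT and 9.09, 7.52 and 8.76 in Abcb11-/- livers. Bicc1, a protein of renal and bile duct epithelium, was at 4.32, 4.60 and 5.01 and at 8.08, 6.80 and 7.30, and Cd24a, a surface glycoprotein, at 6.07, 5.97 and 6.23 and at 8.17, 7.81 and 7.72. Epcam and Sox9 were called but dim, at 4.35, 4.15 and 4.50 and at 4.15, 3.58 and 4.75 in Abcb11-/- livers, and both calls were lost without any WT array. The defining duct keratins Krt19 and Krt7 had log2 fold changes of 0.35 and 0.26 and were not called. Prom1 was at 8.66 to 9.16 in Abcb11-/- livers but at 7.96 in WT replicate 1 and 4.70 and 4.61 in the other WT livers, and was not called.

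Of 28 immediate-early and growth response genes, 9 were higher (32.1%) and 1 lower. The count of 9 was 4 without WT replicate 1 or with a replicate block, 5 without WT replicate 2 and 6 without WT replicate 3 or Abcb11-/- replicate 3. Atf3, a stress-induced repressor, was at 4.42, 3.76 and 4.04 in WT and 7.12, 6.75 and 6.27 in Abcb11-/- livers. Gadd45b was at 5.52, 4.72 and 4.56 in WT and 7.69, 6.99 and 7.48 in Abcb11-/- livers. Gadd45g rose by 2.72 and Btg2, an antiproliferative gene, by 1.70, and these 4 calls were held. Spry4, an inhibitor of growth factor signalling, fell by 1.31 in a dim probe set (mean signal 4.3). Its other probe sets, dimmer still, gave -0.28 to -0.09 and were not called. Egr1 and Fos had log2 fold changes of 0.50 and 1.18 that were not called. Of 17 p53 targets, Btg2, Plk2 (1.48) and the death receptor Fas (0.70) rose with held calls, while Mdm2 was at -0.18 and Cdkn1a, at 5.80, 4.93 and 7.25 in Abcb11-/- and 3.72 to 4.07 in WT livers, missed the threshold (adjusted p = 0.053 from limma). A dimmer probe set of Mdm2 gave -0.75 and one of Cdkn1a gave 1.91. Both were under the threshold in limma over probe sets (adjusted p = 0.0050 and 0.048).

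Of 32 genes of endoplasmic reticulum and amino acid stress, 1 was higher, Atf3, and 2 were lower, and the chaperone Hspa5 and the factor Ddit3 had log2 fold changes of -0.21 and -0.11. Of 12 heat shock genes, 0 were higher and 1 was lower, and Hspa8 was at -0.20. None of 30 proteasome subunits was called (median -0.08), and median centring called 5 of them lower. The respiratory chain had 1 of 70 subunits called higher, and in 41 every Abcb11-/- array lay above every WT array (13.8% of all genes). Its median was 0.13 on the deposited scale, 0.13 with quantile normalization and -0.03 after median centring.

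Of 16 interferon-stimulated genes, 7 were higher (43.8%) and 0 lower, and 5 of the 7 were held. Rsad2, the antiviral protein viperin, was at 7.86, 7.50 and 7.57 in WT and 9.08, 9.53 and 9.82 in Abcb11-/- livers (difference 1.83 ± 0.19 SE on the log2 scale, limma adjusted p = 0.0025). Ifit1, which binds foreign RNA, was at 7.14, 7.34 and 7.04 in WT and 8.19, 8.93 and 8.33 in Abcb11-/- livers. Oasl1 rose by 1.79, Ifit2 by 1.57 and Ifit3 by 0.80, with held calls, and Gbp2 (1.01) and the transcription factor Irf7 (0.88) lost theirs without any WT array. Mx1, Ifi27l2a and Iigp1 had log2 fold changes between -0.02 and 0.11 and were not called. The median of the list above its WT means was 0.403, 0.665 and 0.503 in Abcb11-/- replicates 1, 2 and 3.

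The promoters of these genes were searched for the core of the interferon-stimulated response element, which interferon-activated factors bind. The sequences are the 250 bases before the start of each gene, 5′ to 3′ on the gene's strand, from RefSeq on GRCm38.p6, for the 4 genes that rose and hold the core GAAANNGAA on either strand. Ifit1 is at chr19:34640639-34640888 on the plus strand, Ifit3 at chr19:34583279-34583528 on the plus strand, Rsad2 at chr12:26456453-26456702 on the minus strand and Gbp2 at chr3:142620413-142620662 on the plus strand. Capitals mark the core, and matches may overlap. Ifit1 and Ifit3 hold 3 matches each, Rsad2 and Gbp2 1 each.
Ifit1: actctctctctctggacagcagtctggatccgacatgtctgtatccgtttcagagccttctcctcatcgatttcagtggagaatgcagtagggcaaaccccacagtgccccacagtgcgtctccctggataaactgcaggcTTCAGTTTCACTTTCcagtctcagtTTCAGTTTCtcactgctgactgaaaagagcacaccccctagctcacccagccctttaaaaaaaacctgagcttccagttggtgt
Ifit3: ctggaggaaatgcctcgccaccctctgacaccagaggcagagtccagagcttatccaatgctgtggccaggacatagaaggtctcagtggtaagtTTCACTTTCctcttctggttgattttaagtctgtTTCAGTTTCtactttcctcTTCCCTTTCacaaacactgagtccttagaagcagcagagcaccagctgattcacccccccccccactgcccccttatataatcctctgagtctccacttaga
Rsad2: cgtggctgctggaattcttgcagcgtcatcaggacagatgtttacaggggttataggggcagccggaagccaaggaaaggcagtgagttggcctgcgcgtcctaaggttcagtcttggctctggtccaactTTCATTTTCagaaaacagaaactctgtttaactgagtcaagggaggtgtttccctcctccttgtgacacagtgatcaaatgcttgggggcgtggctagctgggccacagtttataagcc
Gbp2: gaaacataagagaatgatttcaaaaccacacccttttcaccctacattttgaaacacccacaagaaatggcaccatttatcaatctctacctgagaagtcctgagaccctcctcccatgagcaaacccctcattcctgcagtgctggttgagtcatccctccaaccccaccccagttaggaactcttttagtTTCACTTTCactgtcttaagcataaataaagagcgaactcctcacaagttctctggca
The core was in 6.35% of 13605 promoters of tested genes and in 8 of 12 promoters of the interferon list. It was in 4 of the 7 members that rose and in 4 of the 5 that were not called, so members that rose and members that were not called both held it. It was chosen after the values were seen. Of the genes called higher in liver as a whole, 7.23% of promoters held it, and of those called lower, 6.30%. The antioxidant response element TGACNNNGC was in 11.7% of all promoters, in 12.2% of those called higher and in 4 of 26 NRF2 targets. The AP-1 site TGANTCA, bound by Jun and Fos proteins, was in 5.67% of all promoters, 7.75% of those called higher and 4.46% of those called lower. A match is a description of letters and not a site in use.

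Of 42 chemokine, cytokine and NF-kB genes, 9 were higher (21.4%) and 0 lower, at a median of 0.03 that turned to -0.13 after median centring. The count of 9 was 5, 4 and 6 without WT replicates 1, 2 and 3 and 6 without Abcb11-/- replicate 3. Cxcl10, a chemokine induced by interferon, was at 5.60, 4.71 and 4.83 in WT and 6.99, 6.52 and 6.81 in Abcb11-/- livers. Ccl9 was bright in both, at 10.97, 10.91 and 11.07 in WT and 11.98, 11.61 and 11.86 in Abcb11-/- livers. Relb and the lipopeptide receptor Tlr2 rose by 1.33 and 1.15, and all 4 of these calls were held. Ccl2, which attracts monocytes, rose by 1.63 with a call lost without any WT array or without Abcb11-/- replicate 3. Tnf, Il6 and Cxcl2 stayed near 3 in both genotypes. Of 14 antigen presentation genes, 4 were higher (28.6%) and 0 lower, and the count was 1 without any single WT array, 2 without Abcb11-/- replicate 3 and 7 without Abcb11-/- replicate 1. The held member was Ubd. The class II genes H2-Ab1, H2-Aa and H2-Eb1 rose by 1.16, 1.11 and 1.11, none of them held, and the class I genes H2-K1 and H2-D1 had log2 fold changes of 0.11 and 0.10 and were not called.

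Markers of other cell types were set beside these groups. The hepatocyte genes Alb, Apoa1 and Cps1 had log2 fold changes between -0.07 and 0.03, and Ttr of -0.15, not called. Alb was at 13.80 to 13.84 in all 6 arrays. The highest signals of these arrays were 13.84 to 14.16, so Alb lay at the top of the scale, where a change may not show. Of 28 Kupffer cell and macrophage markers, 1 was called, Cybb, a subunit of the phagocyte oxidase, at 7.08, 6.37 and 6.74 in WT and 8.67, 8.73 and 8.90 in Abcb11-/- livers. The defining markers Clec4f, Adgre1 and Vsig4 had log2 fold changes of 0.06, 0.43 and 0.21. The log2 of the list's summed signal was 12.51 to 13.02 in WT and 12.53 to 13.67 in Abcb11-/- livers, and without Abcb11-/- replicate 1, where the list was lowest, 9 members were called higher. Of 14 neutrophil markers, 4 were called higher and 0 held, and 11 had both group means under 5. Without any WT array, or with the replicate block, 0 were called. S100a8 was at 4.37, 3.30 and 3.99 in WT and 5.41, 7.48 and 7.28 in Abcb11-/- livers, and its call was lost without any WT array or without Abcb11-/- replicate 3. The summed neutrophil signal was 7.21 to 7.61 in WT and 7.99 to 9.40 in Abcb11-/- livers. The part of these cells in the rise of chemokine, class II and interferon genes was not tested.

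Counts for matrix, endothelial, red cell and pancreatic genes are set beside the shares over all genes, 4.33% higher and 2.91% lower. Of 41 stellate cell and matrix genes, 2 were higher and 2 lower (4.88% each way), and 21 had both group means under 5. Among those called, Sparc was at 0.62 and Reln, a glycoprotein of stellate cells, at -0.89. Col3a1 and Acta2 had log2 fold changes of 0.85 and 0.48 and were not called. None of 22 endothelial markers, 7 erythroid genes or 9 exocrine pancreas genes was called, with medians of -0.15, 0.10 and -0.06. Both group means were under 5 in 5, 4 and 8 of them, and lists this short may hold no call at those shares. Of 20 lymphocyte markers 1 was called higher, 18 had both group means under 5, and 7 were called higher without Abcb11-/- replicate 1.

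Lipid genes were called in both directions. Lpl, the lipase that releases fatty acids from lipoproteins, was at 10.06, 9.34 and 9.79 in WT and 12.22, 11.16 and 12.22 in Abcb11-/- livers. Cd36, a fatty acid carrier, rose by 1.64, Plin5, a coat protein of lipid droplets, by 1.43 and Fabp4 by 0.85, and these 4 calls were held. Apoc2, the cofactor of Lpl, rose by 0.70, also held. Lpin1, a phosphatidate phosphatase, was at 9.15, 9.01 and 8.84 in WT and 7.50, 7.19 and 7.47 in Abcb11-/- livers, held. Of 29 genes of fatty acid oxidation and ketogenesis, 5 were lower (17.2%) and 1 was higher. The lower count was 2 without WT replicate 1 or 2 or with a replicate block, 3 without WT replicate 3 or Abcb11-/- replicate 3 and 13 after median centring. Vnn1, a pantetheinase, fell by 1.32 and Eci2, a peroxisomal isomerase, by 0.77, both held. The member that rose was Pdk4, which restrains pyruvate oxidation, at 5.44, 3.90 and 3.92 in WT and 6.89, 7.03 and 8.33 in Abcb11-/- livers, a call lost without WT replicate 2 or 3 (highest adjusted p = 0.067 from limma).

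Among sterol genes, Insig2, which retains the sterol-sensing complex, rose by 1.27 (standard error 0.18, held). Hmgcs1, dim at 3.07 to 3.69 in all arrays, rose by 0.42 and lost its call in 10 of the fits that tested it. None of 20 was lower and the median was 0.12. Of 30 phospholipid and sphingolipid genes, 8 were higher (26.7%) and 3 lower, with 2 and 1 held. Smpd3, a neutral sphingomyelinase, was at 3.52, 3.74 and 3.66 in WT and 5.80, 5.21 and 5.40 in Abcb11-/- livers, and Pla2g6, a phospholipase, at 7.23, 7.26 and 6.85 and at 8.43, 7.87 and 8.37. Ugcg, which makes glucosylceramide, fell by 0.90. Pemt, which makes phosphatidylcholine in hepatocytes, had a log2 fold change of 0.11. With the mean of all probe sets 4 were higher and 1 lower, with the replicate block 3 and 1, and without WT replicate 2 or 3 2 and 1. The median of 0.14 turned to -0.02 after median centring.

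Of 28 genes of glucose and glycogen metabolism, 4 were lower (14.3%) and 1 higher (3.57%), and 2 were lower without any single WT array. Gys2, the liver glycogen synthase, was at 10.36, 10.38 and 10.16 in WT and 9.10, 8.68 and 8.69 in Abcb11-/- livers, a held call, and Ugp2, which makes its substrate, fell by 0.60 and lost the call without WT replicate 1 (adjusted p = 0.053 from limma). The glucose carrier Slc2a1 rose by 0.80, held. G6pc, the last step of glucose release, had a log2 fold change of 1.47 that was not called. Of 42 genes of the urea cycle and amino acid breakdown, 5 were higher and 1 lower, none of them held, and none was called with a replicate block or without Abcb11-/- replicate 3.

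Of 23 plasma proteins, 4 were lower and 0 higher, and of 41 genes of coagulation and complement, 4 were lower and 1 higher. No plasma protein was called without any single WT array, without Abcb11-/- replicate 3 or with a replicate block, and 8 were lower after median centring. The lower coagulation and complement count was 1 without WT replicate 1 or 2, without Abcb11-/- replicate 3 or with the block, 2 without WT replicate 3 and 10 after centring. F11, a coagulation factor, fell by 1.14 with a held call. F7, F5 and Masp1 fell by 0.80, 0.53 and 0.53 and were not held. The fibrinogen genes Fga, Fgb and Fgg had log2 fold changes between -0.02 and 0.04. Serpina6, which carries corticosteroids in blood, fell by 1.01 and lost the call in 7 fits, and the major urinary protein Mup3 was at 8.17, 11.94 and 9.53 in Abcb11-/- against 12.83 to 12.88 in WT livers, not called.

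Genes with a sex bias in liver were examined as a list for each sex. Of 17 genes that are higher in males, 5 were lower (29.4%) and 2 higher, and of 14 that are higher in females, 3 were lower (21.4%) and 1 higher. The female list had 1 higher and 1 lower without any single WT array, without Abcb11-/- replicate 3 and with a replicate block, and 5 lower without Abcb11-/- replicate 2. Slco1a1, Cyp2d9, Cyp7b1 and Ugt2b1, of the male list, were lower with held calls, and Cyp4a12a, of the same list, was higher. Sult3a1, of the female list, was lower and Lpl higher, both held. The growth hormone receptor Ghr fell by 0.48, a call lost without any WT array. Igf1 and the sex-specific repressor Cux2 had log2 fold changes of -0.28 and -1.06 and were not called.

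Of 31 genes of iron, haem and metal handling, 5 were higher (16.1%) and 2 lower (6.45%). Without any single WT array 3 were higher and 0 lower, and without Abcb11-/- replicate 3 3 and 1. Hjv, the co-receptor haemojuvelin, was at 8.23, 8.56 and 8.02 in WT and 9.45, 9.33 and 9.52 in Abcb11-/- livers, and its ligand Bmp6 at 4.13, 4.39 and 4.43 and at 5.23, 5.46 and 5.40, both held. Uros, an enzyme of haem synthesis, rose by 0.66, also held. The metal carrier Slc30a10 and the ferrireductase Steap3 rose by 0.67 and 0.73, and the carrier Slc39a14 and the biliverdin reductase Blvrb fell by 0.69 and 0.66, none of them held. The hormone gene that Hjv and Bmp6 regulate, Hamp, had a log2 fold change of -0.19. The ferroportin gene Slc40a1 was at 0.18 and the ferritin genes Fth1 and Ftl1 at 0.13 and 0.16, none of them called.

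Among the falls were also Nnt and Wdfy1. Nnt, the mitochondrial nicotinamide nucleotide transhydrogenase, was at 10.97, 10.69 and 10.54 in WT and 9.41, 9.32 and 9.55 in Abcb11-/- livers, with both probe sets called lower. Mice of the C57BL/6J substrain are known to carry a deletion within this gene. Wdfy1, an endosomal adaptor, was at 7.63, 7.51 and 7.24 in WT and 4.13, 4.25 and 4.33 in Abcb11-/- livers, with 3 of 4 probe sets called. Substrain and genotype cannot be told apart here. Of the 20 measured genes nearest to Abcb11 in order on either side of it (GRCm38.p6), 2 were called on the lower-coordinate side, Fign and Cobll1, and 0 on the other. Calls over all genes were 4.33% higher and 2.91% lower.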

How the data were processed

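Liver RNA of 6 mice was hybridized by the authors to Affymetrix HT MG430 PM arrays. Per the labels and the methods, the deposited values are log2 signals made by RMA in Partek 6.5. RMA gives no detection call, so low signals cannot be told from background, and the number of arrays limits the precision. Array medians were 3.15 to 3.18 in livers and 3.63 to 3.68 in lungs, so livers and lungs were not on a common level. Liver values carry 2 decimals. Of 45037 probe sets, 28898 name 1 gene, 551 several and 15588 none in the platform annotation, and 28689 symbols were updated by gene number. Of the 7180 genes with several probe sets, the one with the highest mean over the 6 arrays was kept, leaving 17097 genes and no filter on low values. Groups were compared in limma 3.58.1 (R 4.3.3, 2-sided, Benjamini-Hochberg). An exact permutation test of 3 against 3 cannot go below 0.1 and was not used. Tested on simulated data of 17097 genes for this comparison, the fit recovered 78% of 2-fold and 96% of 4-fold changes and called 11 unchanged genes.

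The members and gene lists were chosen with earlier results of these data known. Named were the 15 largest rises and falls among called genes with separate groups and a brighter mean of at least 6, the 10 brightest called genes each way, and of each list the first 3 members and up to 6 called members each way. Other list members were named for their role after their values were seen. Alternatives averaged a gene's probe sets, required a mean of 6, changed the scaling (quantile or median), used a robust trended prior, blocked on replicate number, dropped single arrays or applied the methods' t-test. Columns of the authors' comparisons were not used.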

Additional observations from a re-analysis of the deposited data

How the results depend on the processing

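As reported, 740 genes were higher and 498 lower. The counts were 315 to 888 higher and 177 to 621 lower when 1 array was left out, lowest without WT replicate 2 and highest without Abcb11-/- replicate 2. With the replicate number as a block they were 429 and 242. The numbers gave no sign of pairing the samples. Deviations of same-numbered arrays correlated at -0.0449, -0.041 and -0.135, and those of differently numbered arrays at -0.0198 to 0.0765. Shared litters or batches cannot be read from these values. Median centring gave 1659 lower. The methods' t-test gave 1685 higher and 1444 lower at an unadjusted p under 0.05, and 26 and 23 after Benjamini-Hochberg adjustment. No named gene that was called reversed its direction in these settings. Of 343 named genes, 229 were called and the rest were not. Of the 343, 218 to 307 stayed on the same side of the threshold when 1 array was left out, fewest without WT replicate 2. In that fit, 125 of the 229 called genes lost their call. Of 53 list medians, 34 moved by more than the spread between replicates after median centring.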

Other observations

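Among the 15588 probe sets with no gene named, 162 were higher and 161 lower in Abcb11-/- livers (2.07% called in limma over all probe sets), against 930 and 682 of the 28898 with a single gene (5.58%). Of the 290 genes that were at least 2-fold higher in Abcb11-/- liver, 24 (8.28%) were above 1.5-fold and 17 (5.86%) below the inverse in the neonatal lung array with an Abcb11-/- mother, set against the array with a WT mother. Over all genes these shares were 3.99% and 2.75%, and 1 array a group allows no test. Among the 60 measured genes on the lower-coordinate side of Abcb11 on chromosome 2, 9 were called, and among the 60 on the other side 0 were. Over all genes 4.33% were called higher and 2.91% lower, and the difference between the sides was not tested.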
